A study of Mus musculus with 3 samples.

Results

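The genes of DNA replication and of the G1/S transition were followed in primary hepatocytes of C57BL/6 mice, freed by collagenase perfusion of the liver and cultured at passage 1. They are 41 genes named by symbol for their known roles, out of 37620 mouse gene identifiers. The rule uses no measured value, but the list was drawn up with earlier results of these data known. Each symbol matched 1 identifier, and all 41 were among the 11300 genes that averaged at least 1 RPKM over the libraries and were tested. RPKM divides the reads of a gene by its length and by the size of its library, so levels of different genes are compared per length. The gene lengths the authors used are not given in the labels. The tested cells were given tauroursodeoxycholic acid (TUDCA), a bile acid conjugated to taurine that also serves as a chemical chaperone. There were 2 TUDCA libraries, labelled 100 mM for 24 h, and 1 library of cells given the solvent DMSO, for which no time is labelled. The unit of the dose was not checked against another source. A difference in culture time, if there was one, cannot be told apart from the treatment. The study counts 2 independent experiments, and the labels do not say which library came from which. The p-values therefore measure only the spread between the TUDCA libraries, which may be technical.

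A cell copies its DNA once per cycle. In G1, the origin recognition complex (ORC), Cdc6 and Cdt1 load the MCM helicase onto DNA, a step called licensing. At the G1/S transition, cyclin E kinase and E2F factors promote the switch, Cdc45 and the GINS complex turn the loaded helicase on, and polymerases, the PCNA clamp and its loader RFC copy the strands from nucleotides that ribonucleotide reductase, thymidylate synthase and thymidine kinase help to supply. Hepatocytes of the adult liver are mostly quiescent and enter the cycle after injury or partial hepatectomy, and plating them can start the passage into G1.

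The RPKM values rest on 9757547 and 10575699 reads in the TUDCA libraries and 10774289 reads in the DMSO library. Hepatocyte markers were abundant in every library, with albumin (Alb) at 7177 and 6111 RPKM with TUDCA, against 5771 RPKM in DMSO. Of 8 hepatocyte markers tested, 3 were called higher with TUDCA and none lower, where 1.77% of all genes tested were called higher and 0.876% lower. The called markers included Fgb, at 2530 and 1885 RPKM with TUDCA, against 914 RPKM in DMSO. Fga stood at 1588 and 1065 RPKM, against 541 RPKM, and Hnf4a at 199 and 191 RPKM, against 115 RPKM in DMSO. Of 8 macrophage and Kupffer cell markers tested, none was called, and the list of 9 summed to 247 and 259 RPKM with TUDCA, against 271 RPKM in DMSO. Most of this sum was Cd68, at 154 and 169 RPKM with TUDCA, against 170 RPKM in DMSO. Both TUDCA libraries were above DMSO for 4 of the 8 and below it for 4, beside 40.5% and 30.4% of all genes tested. The 8 stellate cell and fibroblast markers summed to 12.7 and 11.01 RPKM with TUDCA, against 14.6 RPKM in DMSO, and the 6 endothelial markers to 4.69 and 3.74 RPKM, against 2.89 RPKM in DMSO. Only 6 of the stellate cell and fibroblast markers and 2 of the endothelial markers passed the filter and were tested, and none of these was called. Among the untested markers, Lrat was at 0 in TUDCA replicate 2 and Lyve1 at 0 in DMSO. Of 5 cholangiocyte markers, Krt7 and Epcam reached at most 0.384 RPKM in any library. Sox9 had 26.1 and 31.7 RPKM with TUDCA, against 20.4 RPKM in DMSO, and Krt19 had 9.50 and 17.04 RPKM, against 10.7 RPKM in DMSO, neither of them called. Spp1, which other cells also make, was the 1 member called higher (limma adjusted p = 0.00464). These bulk libraries cannot separate fewer cells of a type from less RNA per cell, and the part of other cell types in the values below was not tested.

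No DNA replication or G1/S gene was called between TUDCA and DMSO. With limma on log2(RPKM + 1), adjusted over 11300 genes at a threshold of 0.05, 0 of 41 members passed, where 2.65% of all genes tested passed (1.77% higher and 0.876% lower with TUDCA). At an unadjusted p below 0.05 there were 4 members, Tk1 and Mcm10 above DMSO and Cdt1 and Mcm2 below, which is 9.76% of the members beside 10.8% of all genes tested. The fit of voom on reads recovered from the RPKM values also called 0 members, with 5 at an unadjusted p below 0.05, and 2.36% of all genes. No member passed under the other scalings and filters either, where the share of all genes called was 2.89% with a pseudocount of 0.1, 0% without the filter on low values, 2.71% with a filter at 5 RPKM, 2.7% in TPM, 2.27% with quantile normalization, 2.29% with median centring, 2.32% without the variance trend and 2.59% with robust estimation. After a correction for GC content and gene length, which called 5.85% of genes, 2 members passed and 12 had an unadjusted p below 0.05. The share of all genes at that unadjusted p is not given for this fit. The 2 that passed were Tk1, higher with TUDCA (limma adjusted p = 0.00642), and Mcm2, lower (limma adjusted p = 0.0306). Mcm6 and Cdt1, both lower, came next (limma adjusted p = 0.0542 and 0.0612). The lengths in this correction were the smallest that give whole reads from the RPKM values, and the true lengths may be multiples of them. The median log2 fold change of the members was 0.03, beside 0.04 over all genes tested. It was 0.12 in TUDCA replicate 1 and 0.02 in TUDCA replicate 2, beside 0.06 and 0.02 over all genes.

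The members were expressed at the level of the typical gene tested. Their median was 16.9 and 15.1 RPKM with TUDCA, against 14.6 RPKM in DMSO, where the median of all genes tested was 15.9 and 15.2 RPKM with TUDCA and 14.7 RPKM in DMSO. Summed over the 41 genes, the level was 1058 and 1014 RPKM with TUDCA, against 1075 RPKM in DMSO. Levels spanned a wide range, with Mcm7 highest and Gins3 lowest in all 3 libraries. Both TUDCA libraries lay above DMSO for 19 members and below it for 16, and for 6 members DMSO lay between them. Over all genes tested, 40.5% had both TUDCA libraries above DMSO and 30.4% had both below. The TUDCA libraries differed from each other by a median of 0.19 on the log2 scale for the members, beside 0.20 for all genes tested. The intervals given below are 95% intervals of the log2 fold change from limma, which took 1 spread for all genes of like level and assumed that the lone DMSO library varies like the TUDCA pair. For 33 of 41 members the interval stayed within 1 on the log2(RPKM + 1) scale in either direction, as for 9695 of all 11300 genes tested. That scale understates changes of low genes, so for them the limit is not a 2-fold difference in RPKM.

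**Figure D1:**
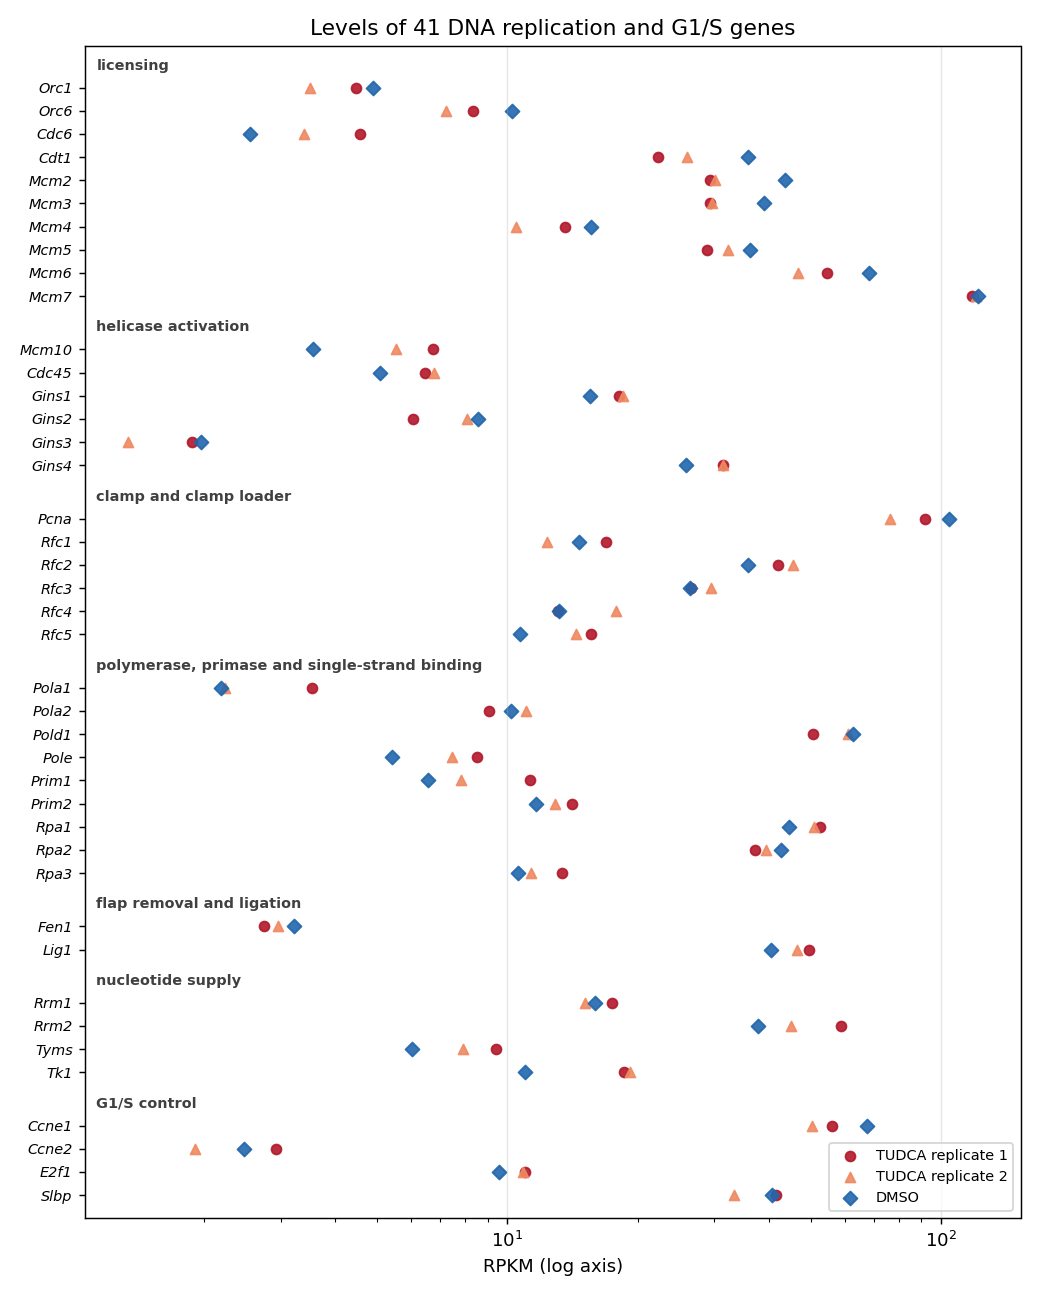
RPKM (log axis) of the 41 genes by role, with 1 point per library for TUDCA replicate 1, TUDCA replicate 2 and DMSO. Mcm7 stood at 118 and 120.1 RPKM with TUDCA, against 122 RPKM in DMSO, while Gins3 stayed below 2 RPKM in all 3 libraries.

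The 10 licensing genes among the members lay mostly below DMSO, and none passed the test. Both TUDCA libraries were below DMSO for 9 of them, with Cdc6 the exception, where 30.4% of all genes tested had both below. Every gene is set against the same single DMSO library. The median log2 fold change of the 10 genes was -0.36, with -0.29 in TUDCA replicate 1 and -0.42 in TUDCA replicate 2. Cdt1 (ENSMUSG00000006585), the loader whose activity is confined to G1 by geminin and by degradation, had 22.2 and 25.9 RPKM with TUDCA, against 35.9 RPKM in DMSO. Its log2 fold change of -0.56 ± 0.24 (SE, interval -1.04 to -0.09, limma adjusted p = 0.284) was the most negative of the 41. Mcm2, a subunit of the helicase that also binds histones, had 29.3 and 30.2 RPKM with TUDCA, against 43.7 RPKM in DMSO. The TUDCA values lay close together and well below DMSO, and the log2 fold change was -0.54 ± 0.24 (SE, interval -1.002 to -0.08, limma adjusted p = 0.304). Mcm6 had 54.5 and 46.7 RPKM with TUDCA, against 68.05 RPKM in DMSO (log2 fold change -0.42 ± 0.22 SE, limma adjusted p = 0.488). Mcm3 had 29.3 and 29.7 RPKM with TUDCA, against 39.1 RPKM in DMSO (log2 fold change -0.40 ± 0.24 SE, limma adjusted p = 0.604). In all 3 of these helicase genes both TUDCA libraries were below the DMSO library.

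The other helicase subunits were nearer to DMSO. Mcm4 had 13.6 and 10.5 RPKM with TUDCA, against 15.6 RPKM in DMSO, and Mcm5 had 28.9 and 32.2 RPKM, against 36.3 RPKM in DMSO. Mcm7, the most abundant subunit, had 118 and 120.1 RPKM with TUDCA, against 122 RPKM in DMSO, a log2 fold change of -0.03 with an interval of -0.44 to 0.38. Mcm2 to Mcm7 form 1 ring of 6 different subunits, yet their mRNA levels were far from equal. Mcm7 exceeded Mcm4, the lowest, by 8.67 and 11.5 times in the TUDCA libraries and by 7.80 times in DMSO. This ratio rests on the lengths behind the RPKM values, for which the smallest that fit whole reads were 1068 bases for Mcm7 and 3096 bases for Mcm4, beside 4426 and 3589 exon bases in GENCODE M21. The true lengths may be multiples of the smallest. Ratios between genes, here and below, come from the deposited values and hold only so far as the authors' lengths fit the transcripts, which was not tested. Summed over the 6 genes, the level was 274 and 269 RPKM with TUDCA, against 324 RPKM in DMSO. In GENCODE M21, 12.6% of the exon bases of Mcm7 overlap other genes. Among them are Ap4m1 and Cops6 on the opposite strand and Mir93 and Mir25 on the same strand, so reads of these genes may be mixed with its own. Larger overlaps with genes on the opposite strand are annotated for Ccne2 (17.4%, Ints8), Rfc2 (15.1%, Lat2) and Rfc4 (12.7%, Eif4a2).

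Orc6, Orc1 and Cdc6 had lower RPKM than each of Mcm2 to Mcm7 in all 3 libraries. Orc6, a small subunit of ORC, had 8.33 and 7.20 RPKM with TUDCA, against 10.2 RPKM in DMSO (log2 fold change -0.36 ± 0.28 SE, limma adjusted p = 0.763). Orc1, the large ATPase subunit, had 4.47 and 3.50 RPKM with TUDCA, against 4.91 RPKM in DMSO. Of the ORC subunits outside the members, Orc3 and Orc5 were above DMSO in both TUDCA libraries (log2 fold changes 0.29 and 0.26). For Orc2 (0.06) and Orc4 (0.23) DMSO lay between the TUDCA libraries, and none of these subunits was called. Cdc6, the ATPase that loads the helicase together with ORC and Cdt1, was the 1 licensing member above DMSO in both TUDCA libraries. It had 4.56 and 3.40 RPKM with TUDCA, against 2.55 RPKM in DMSO (log2 fold change 0.48 ± 0.30 SE, limma adjusted p = 0.641). The level of Cdt1 was 4.86 and 7.60 times that of Cdc6 in the TUDCA libraries, against 14.1 times in DMSO, a ratio chosen after its values were seen and not tested.

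Many genes of the G1/S wave carry binding sites for E2F, the factor family that retinoblastoma proteins hold in check. RefSeq promoters (GRCm38.p6, 250 bases before to 50 after the start) were found for 33 of the 41 members and searched on both strands for a set of E2F letters. The set was TTCCCGC with its variants of the middle bases, which are TTCGCGC and further TTGCCGC as well as TTGGCGC, and matches could overlap each other. At least 1 match was present for 20 of 33 members (60.6%), beside 19.7% of the 8690 tested genes with a promoter and 10.9% of the 27025 genes of the whole table. By role it was 7 of 9 licensing genes, 1 of 3 genes of helicase activation, 3 of 5 clamp and loader genes, 5 of 7 polymerase, primase and RPA genes, 2 of 2 genes of flap removal and ligation, 2 of 4 of nucleotide supply and 0 of 3 of G1/S control. A search for CCAAT on both strands, whose matches can overlap TTGGCGC, found it in 63.6% of members and 42.7% of tested genes. The 150 bases before the start are shown for helicase genes with many and without matches and for Tk1, the member with the most positive fold change, since these span both directions, and capitals mark E2F letters. They were chosen after the values were seen.
Mcm6, chr1:128359706-128359855, minus strand: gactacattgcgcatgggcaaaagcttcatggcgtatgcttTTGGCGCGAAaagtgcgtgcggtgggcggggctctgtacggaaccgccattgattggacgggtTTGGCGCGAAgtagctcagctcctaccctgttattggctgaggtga
Mcm5, chr8:75109359-75109508, plus strand: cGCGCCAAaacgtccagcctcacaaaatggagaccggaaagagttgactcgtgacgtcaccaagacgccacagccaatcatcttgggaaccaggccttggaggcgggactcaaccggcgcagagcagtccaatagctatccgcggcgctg
Mcm2, chr6:88898781-88898930, minus strand: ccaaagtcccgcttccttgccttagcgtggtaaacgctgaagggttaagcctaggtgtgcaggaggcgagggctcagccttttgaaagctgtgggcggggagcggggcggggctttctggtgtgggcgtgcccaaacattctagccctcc
Tk1, chr11:117826015-117826164, minus strand: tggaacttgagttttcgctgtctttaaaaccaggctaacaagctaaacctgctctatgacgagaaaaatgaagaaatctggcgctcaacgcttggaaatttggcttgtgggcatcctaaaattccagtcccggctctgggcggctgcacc
The Mcm6 stretch holds 4 matches in 2 blocks, each block a match on one strand overlapping a match on the other. The blocks begin 109 and 46 bases before the start. Mcm5 has 1 match in the stretch shown, 149 bases before its start. Over the whole 300 bases Mcm6 has 5 matches and Mcm5 has 3. Mcm2, which lay below DMSO, and Tk1, which lay above it, both had 0 matches in their 300 bases.

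**Figure D2:**
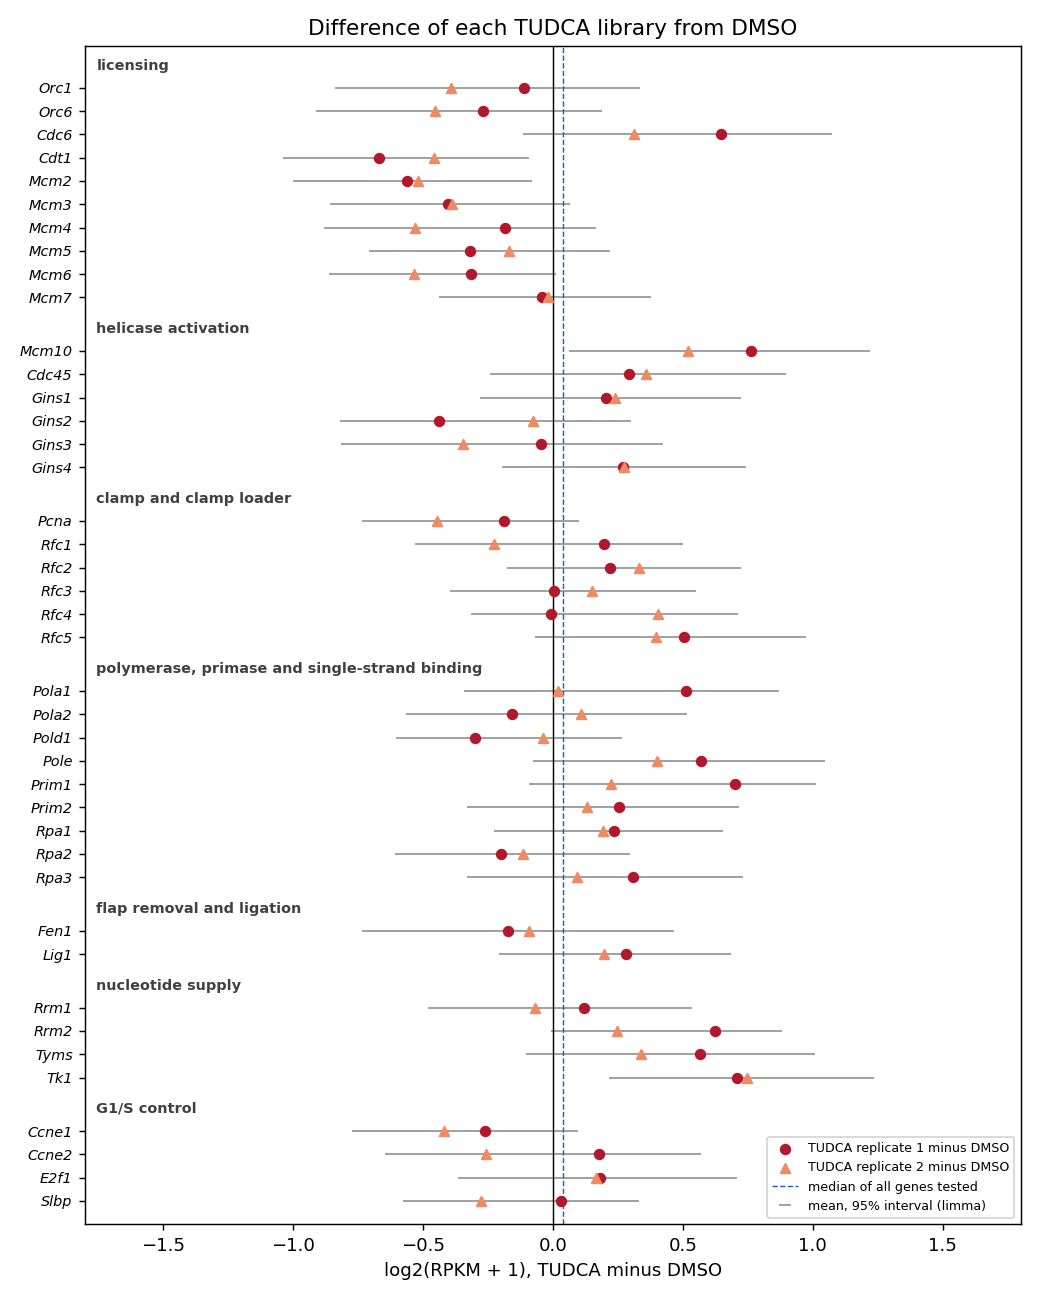
log2(RPKM + 1) of each TUDCA library minus DMSO for the 41 genes by role. Symbols are single TUDCA libraries, grey bars the 95% interval of the limma fold change, and the dashed line the median of all genes tested, 0.04. The intervals of Cdt1, Mcm2, Mcm10 and Tk1 leave out 0.

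Genes that activate the loaded helicase lay on both sides of DMSO, and none of the 6 passed the test. Mcm10, which helps the helicase start to unwind, had 6.74 and 5.54 RPKM with TUDCA, against 3.56 RPKM in DMSO. Both TUDCA libraries were above DMSO, with a log2 fold change of 0.64 ± 0.30 (SE, interval 0.06 to 1.22, limma adjusted p = 0.361). The counts behind Mcm10 were 120 and 107 reads with TUDCA and 70 reads in DMSO, as the smallest whole numbers that fit the RPKM values. Cdc45, which joins MCM and GINS in the active helicase, had 6.45 and 6.79 RPKM with TUDCA, against 5.07 RPKM in DMSO.

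The 4 GINS subunits assemble in equal numbers, and their mRNA levels differed widely. Gins4 had 31.3 and 31.4 RPKM with TUDCA, against 25.8 RPKM in DMSO, and Gins1 had 18.1 and 18.5 RPKM, against 15.5 RPKM in DMSO. For both genes the TUDCA libraries nearly coincided above DMSO. Gins2 had 6.04 and 8.05 RPKM with TUDCA, against 8.56 RPKM in DMSO, and Gins3 had 1.87 and 1.33 RPKM, against 1.96 RPKM in DMSO. For both, the TUDCA libraries were below DMSO, with 1 library of each gene close to it. The order Gins4, Gins1, Gins2, Gins3 was the same in all 3 libraries, and Gins4 exceeded Gins3 by 16.8 and 23.6 times with TUDCA and by 13.1 times in DMSO. In GENCODE M21, 67.3% of the exon bases of Gins2 overlap Gse1 on the opposite strand. Whether reads were counted by strand is not stated in the labels, so the reads of this pair cannot be told apart.

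The sliding clamp Pcna, which holds polymerases on DNA, was the second most abundant member in DMSO. It had 91.6 and 76.3 RPKM with TUDCA, against 104 RPKM in DMSO (log2 fold change -0.32, interval -0.74 to 0.10). Both TUDCA libraries were below DMSO, and they differed from each other by 0.26 on the log2 scale. Pcna-ps1 and Pcna-ps2 are annotated as copies of Pcna, so some of its reads may have been assigned elsewhere.

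RFC, the ATPase that opens the clamp, has the large subunit Rfc1 and the small subunits Rfc2 to Rfc5, and none of the 5 was called. Rfc5 had 15.6 and 14.4 RPKM with TUDCA, against 10.7 RPKM in DMSO (log2 fold change 0.45, interval -0.07 to 0.97). Rfc2 had 42.0 and 45.5 RPKM with TUDCA, against 36.0 RPKM in DMSO. Both TUDCA libraries were above DMSO for these subunits. Rfc3 had 26.5 and 29.4 RPKM with TUDCA, against 26.4 RPKM in DMSO. Rfc4 had 13.07 and 17.8 RPKM with TUDCA, against 13.15 RPKM in DMSO, and Rfc1 had 16.9 and 12.3 RPKM, against 14.6 RPKM in DMSO. In the last pair of genes DMSO lay within the range of the TUDCA libraries.

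In the group of polymerase, primase and RPA genes, both TUDCA libraries were above DMSO for 6 of 9 genes, where 40.5% of all genes tested had both above. The 6 were Pole, Prim1, Prim2, Pola1, Rpa1 and Rpa3, and none of the 9 passed the test. The median log2 fold change of the 9 genes was 0.20. Pole, the catalytic subunit of the leading-strand polymerase epsilon, had 8.52 and 7.47 RPKM with TUDCA, against 5.41 RPKM in DMSO (log2 fold change 0.49 ± 0.29 SE, limma adjusted p = 0.596). Pold1, the catalytic subunit of the lagging-strand polymerase delta, had 50.6 and 60.8 RPKM with TUDCA, against 62.5 RPKM in DMSO. TUDCA replicate 2 was thus close to DMSO for Pold1, while for Pole both TUDCA libraries lay above it. The level of Pold1 was 5.94 and 8.15 times that of Pole with TUDCA, against 11.6 times in DMSO, without a test.

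Primase makes the RNA primers that polymerase alpha extends. Its catalytic subunit Prim1 had 11.3 and 7.81 RPKM with TUDCA, against 6.55 RPKM in DMSO (log2 fold change 0.46 ± 0.28 SE, limma adjusted p = 0.619). The TUDCA libraries differed by 0.48 on the log2 scale, so its log2 fold change was 0.70 in TUDCA replicate 1 and 0.22 in TUDCA replicate 2. Prim2, the large primase subunit, had 14.1 and 12.9 RPKM with TUDCA, against 11.7 RPKM in DMSO. The polymerase alpha subunits did not stand clear of DMSO. Pola1, the catalytic subunit, had 3.55 and 2.23 RPKM with TUDCA, against 2.19 RPKM in DMSO, from 44 and 30 reads with TUDCA and 30 reads in DMSO. Pola2, the regulatory subunit, had 9.05 and 11.1 RPKM with TUDCA, against 10.2 RPKM in DMSO, which lay between them.

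RPA coats single-stranded DNA as a trimer. Rpa1 had 52.6 and 51.0 RPKM with TUDCA, against 44.5 RPKM in DMSO, and Rpa3 had 13.3 and 11.3 RPKM, against 10.6 RPKM in DMSO. Rpa2 had 37.2 and 39.5 RPKM with TUDCA, against 42.8 RPKM in DMSO. The subunits thus lay on both sides of DMSO, and the order Rpa1, Rpa2, Rpa3 held in all 3 libraries. Lig1, the ligase that seals Okazaki fragments, had 49.5 and 46.6 RPKM with TUDCA, against 40.5 RPKM in DMSO, and the flap nuclease Fen1 had 2.75 and 2.96 RPKM, against 3.23 RPKM in DMSO. Lig1 was above and Fen1 below DMSO in both TUDCA libraries. In GENCODE M21, 84.2% of the exon bases of Fen1 overlap Gm10143 and Tmem258 on the opposite strand, and whether its low level reflects reads left out there was not tested.

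Nucleotide supply had all 4 fold changes above 0, with a median of 0.44 (0.60 and 0.29 in TUDCA replicates 1 and 2), and no member passed the test. Tk1 (ENSMUSG00000025574), the thymidine kinase of the salvage pathway that peaks in S phase, had 18.6 and 19.1 RPKM with TUDCA, against 10.999 RPKM in DMSO. The TUDCA libraries lay close together, and the log2 fold change of 0.73 ± 0.26 (SE, interval 0.22 to 1.24, limma adjusted p = 0.127) was the most positive of the 41. Rrm2, the subunit of ribonucleotide reductase that limits its activity in S phase, had 58.8 and 45.1 RPKM with TUDCA, against 37.8 RPKM in DMSO (log2 fold change 0.44, interval -0.01 to 0.88). Its partner Rrm1 had 17.4 and 15.1 RPKM with TUDCA, against 15.9 RPKM in DMSO, so DMSO lay between the TUDCA libraries. The level of Rrm2 was 3.38 and 2.98 times that of Rrm1 with TUDCA, against 2.38 times in DMSO, without a test. Tyms, thymidylate synthase, had 9.41 and 7.88 RPKM with TUDCA, against 6.02 RPKM in DMSO (log2 fold change 0.45, interval -0.10 to 1.01), and a copy is annotated as Tyms-ps.

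The G1/S regulators gave no call among 4 genes. Ccne1, cyclin E1, which activates Cdk2 at the end of G1, was far more abundant than its relative Ccne2. It had 56.2 and 50.3 RPKM with TUDCA, against 67.5 RPKM in DMSO (log2 fold change -0.34, interval -0.77 to 0.10), with both TUDCA libraries below DMSO. Ccne2 had 2.93 and 1.91 RPKM with TUDCA, against 2.47 RPKM in DMSO, which lay between them. E2f1, an activating E2F, had 10.97 and 10.8 RPKM with TUDCA, against 9.56 RPKM in DMSO. Slbp, which binds the stem-loop of histone mRNAs, had 41.6 and 33.4 RPKM with TUDCA, against 40.7 RPKM in DMSO, also between them.

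**Figure D3:**
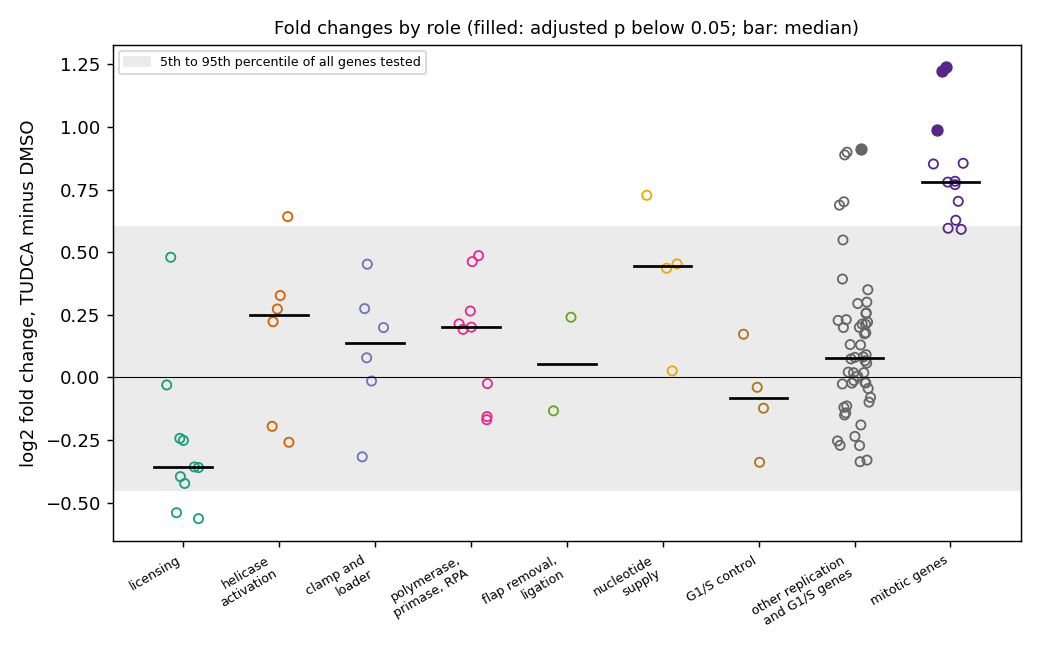
log2 fold change of TUDCA minus DMSO for each gene by role, for other replication and G1/S genes and for mitotic genes. Bars are medians, filled points passed the test, and the grey band holds the 5th to 95th percentile of all genes tested. Licensing has a median of -0.36 and nucleotide supply one of 0.44, with no filled point among the 41 members.

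Of 57 other genes of replication and the G1/S transition, 52 were tested. Of these, 1 was called higher with TUDCA and 51 did not pass, a share close to the 1.77% of all genes tested that were called higher, with a median log2 fold change of 0.08 beside 0.04 over all genes tested. The called gene was Rbl2, the retinoblastoma relative p130 that represses E2F targets in quiescent cells, with 19.2 and 13.1 RPKM with TUDCA, against 7.98 RPKM in DMSO. Its log2 fold change was 0.91 ± 0.27 (SE, limma adjusted p = 0.0303), with 1.17 in TUDCA replicate 1 and 0.65 in TUDCA replicate 2 taken alone. The call was lost without the filter on low values, with quantile normalization, with median centring and with voom (adjusted p = 0.607, 0.118, 0.0606 and 0.0618). The next highest were Chtf18, a subunit of an alternative clamp loader, and Pclaf, which binds PCNA. Chtf18 had 4.56 and 4.78 RPKM with TUDCA, against 2.04 RPKM in DMSO (limma adjusted p = 0.0925), and it passed without the variance trend (adjusted p = 0.0487) and with GC content and length corrected (adjusted p = 0.00887). Pclaf had 4.10 and 2.36 RPKM with TUDCA, against 1.24 RPKM in DMSO (limma adjusted p = 0.113). The lowest were Cdk2, the kinase partner of cyclin E, with a log2 fold change of -0.34, Pold4, a small subunit of polymerase delta, with -0.33, and Rnaseh2a, which removes RNA from DNA hybrids, with -0.27. None of these 3 was called.

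Genes of the later cell cycle were set beside the members. Of 12 mitotic genes, 3 were called higher with TUDCA and 9 did not pass, where 1.77% of all genes tested were called higher, and their median log2 fold change was 0.78. Top2a, the topoisomerase that untangles sister chromosomes, rose to 15.8 and 10.4 RPKM with TUDCA, against 4.94 RPKM in DMSO (limma adjusted p = 0.00089). Ccna2, cyclin A2, which acts in S phase and G2, rose to 9.35 and 8.51 RPKM with TUDCA, against 3.20 RPKM in DMSO (limma adjusted p = 0.00145). Ccnb1, cyclin B1, rose to 4.89 and 4.63 RPKM with TUDCA, against 1.91 RPKM in DMSO (limma adjusted p = 0.0445). That call was lost in TPM (adjusted p = 0.0593), with quantile normalization (0.111), with median centring (0.0518) and with voom (0.0594), and Ccnb1 was not tested under the filter at 5 RPKM. In each of the 12 genes both TUDCA libraries were above DMSO, as in 40.5% of all genes tested. None of the 3 calls held without the filter. After the GC and length correction, 9 of the 12 were called higher, where 5.85% of all genes were called in either direction. At an unadjusted limma p below 0.05 there were 11 of the 12 (91.7%), beside 10.8% of all genes tested. The difference between the members and the mitotic genes was not tested as such.

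**Figure D4:**
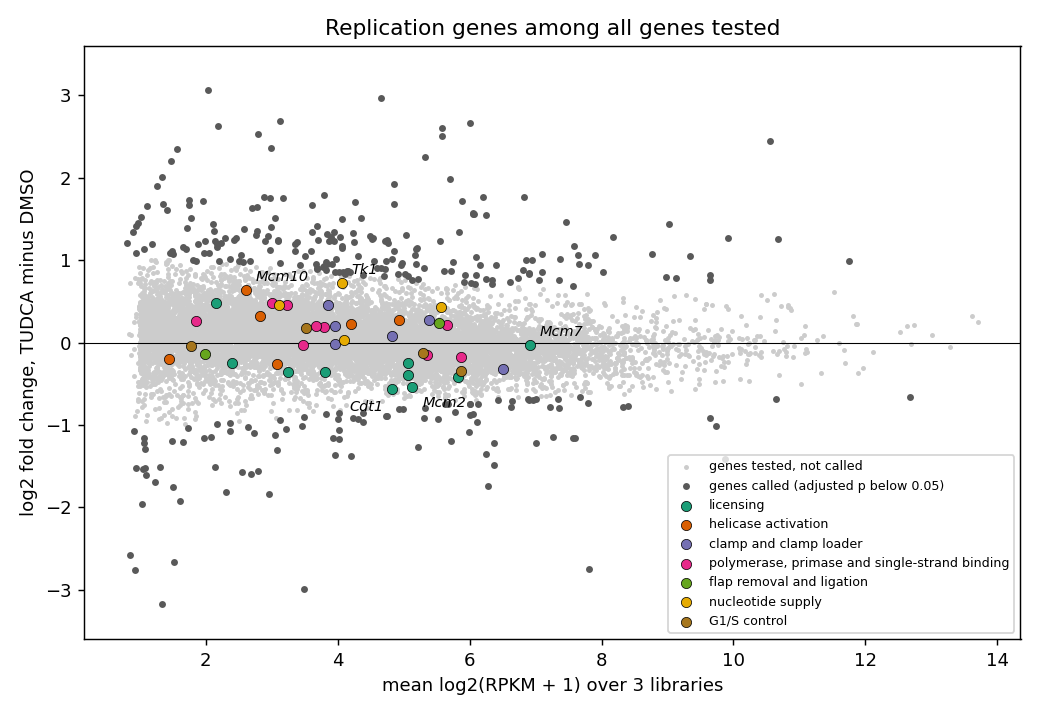
log2 fold change of TUDCA minus DMSO against the mean log2(RPKM + 1) over 3 libraries for 11300 genes. Grey points were not called, dark points passed the test, and coloured points are the 41 members by role. The members lie between -0.56 (Cdt1) and 0.73 (Tk1), inside the cloud of genes that were not called.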

How the data were processed

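RNA was measured by sequencing of polyadenylated RNA, per the labels' protocols. The authors deposited RPKM values, 1 table per library with 37620 Ensembl identifiers. CASAVA, Bowtie2, HTSeq and TopHat2 2.0.7 are listed, with no roles, in the submitters' processing notes. The sources used here do not state the genome build or the annotation. Symbols came from GENCODE M21 by identifier (32897 matched). Library totals and the smallest whole reads were recovered from the RPKM values, within a tolerance of 1e-06 that widens with the count, for 19146 of 19146 genes above 0, and a gene may hold a multiple of them. These reads add up to 95.7 to 95.8% of the totals.

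Values were tested as log2(RPKM + 1), which understates changes of low genes, with limma 3.58.1 in R 4.3.3 (lmFit, eBayes with a variance trend) on genes averaging 1 RPKM or more, with Benjamini-Hochberg adjustment over 11300 genes. The prior degrees of freedom came out infinite, so each gene took the spread of its level (SD 0.159 to 0.265), and the SE understates the spread of genes whose TUDCA libraries lie far apart. The GC and length correction (loess, span 0.3, for each TUDCA library minus DMSO) covered 11149 genes. Its lengths were the smallest that fit whole reads, not annotated lengths. Every member is named. The 5 highest and 5 lowest members get full statistics. Of the other genes, those called, the 3 highest and lowest and Orc2 to Orc5 are named. The members and lists were chosen with earlier results of these data known. The hepatocyte list had 9 symbols, of which 8 matched. Alternatives tried were TPM, a filter at 5 RPKM or none, a pseudocount of 0.1, quantile normalization, median centring, no trend, robust estimation, voom, the GC and length correction and leaving out each TUDCA library.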

Additional observations from a re-analysis of the deposited data

How the results depend on the processing

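The count of 0 called members held under 9 of the 10 alternatives with a test and became 2 after the GC and length correction. Over all genes, 299 were called, 0 without the filter on low values and 652 after that correction. Of the other replication and G1/S genes, 1 was called, 0 without the filter, with quantile normalization, with median centring and with voom, and 2 without the trend and after the GC and length correction. The median of the members was 0.026, moved to -0.049 with median centring, and ranged from 0.018 to 0.12 when 1 TUDCA library was left out. With median centring the median over all genes tested moved likewise, from 0.039 to -0.035. The fold change of a member reversed its sign in 12 of 486 values. With quantile normalization Mcm7 was at 0.043 and Rrm1 at -0.047, with median centring Rrm1 at -0.049, and after the GC and length correction Mcm7 at 0.033, Rfc3 at -0.0069 and Rrm1 at -0.067. Leaving out TUDCA replicate 1 or 2 gave Ccne2 -0.26 or 0.18, Pola2 0.11 or -0.16, Rfc1 -0.23 or 0.20, Rfc4 0.41 or -0.0084 and Slbp -0.28 or 0.032, and Rrm1 was at -0.069 without replicate 1. The causes were not tested. Leaving out a TUDCA library left 1 library a group, so no test was run there, and a second DMSO library would be needed to measure its spread. No paired analysis was possible because the single DMSO library shares fewer than 2 replicate numbers with TUDCA. Intervals cover the spread between the TUDCA libraries only, and members with 30 to 61 reads a library (Pola1, Ccne2, Gins3, Fen1) limit what can be seen.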
